A study of Rattus norvegicus with 39 samples.

Results

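Hepatocytes of rats dosed with corn oil alone were compared between 6 h and 2 h after dosing. All arrays of the series with these labels were used, 5 at 6 h and 5 at 2 h, which together are 10 of the 39 arrays of the series. The rats were Sprague Dawley, 8 weeks old, and received corn oil at 10 ml per kg. Hepatocytes were taken from liver sections by laser capture microdissection, in which a laser cuts chosen cells out of a slice of tissue. The RNA was amplified and hybridised to Affymetrix rat arrays, and the arrays of a group are labelled as biological replicates. In the other hepatocyte groups the corn oil carried alpha-naphthyl isothiocyanate (ANIT), a toxicant of the biliary epithelium, and the dose was 50 mg per kg (6 h, n = 5, and 2 h, n = 5). Bile duct was captured from vehicle rats at 6 h (n = 4) and 2 h (n = 5), and whether these are the rats of the hepatocyte arrays is not given in the labels. The 6 h and 2 h arrays come from different rats, and neither the clock time of dosing and killing nor the feeding state is given in the sources used here. Hours after the dose, time of day, feeding, the corn oil itself and any difference in handling between the collections cannot be told apart.

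The mammalian liver keeps daily time with a transcriptional loop. BMAL1 and CLOCK drive the Per and Cry genes and the nuclear receptor genes Nr1d1 and Nr1d2, whose products then repress BMAL1 and CLOCK activity or Bmal1 transcription. The loop also drives the related factors DBP, HLF and TEF, and many liver enzymes of bile acid, lipid and amino acid metabolism follow the day as well as meals.

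Values are log2 probe set intensities made by the authors with RMA, a method that corrects background, equalises the distribution of values between arrays and summarises the probes of each set. A change is the mean of the 6 h arrays minus the mean of the 2 h arrays on this scale, so it is positive where the 6 h level was higher. Errors of group means are standard deviations (SD, n = 5 per group) and errors of changes are standard errors from limma. Levels of different probe sets are not comparable with each other. Rose and fell are used here of probe sets with an adjusted p under 0.05 (limma, Benjamini-Hochberg over 15866 probe sets), and the arrays' number limits the precision.

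In all 3529 of 15866 probe sets passed, 22.2%, of which 1498 were higher (9.44% of those tested) and 2031 were lower (12.8%) at 6 h. In 15.3% of probe sets the 6 h and the 2 h arrays did not overlap. Changes were mostly small, since 88 probe sets rose and 127 fell by at least 2-fold. With each gene represented by its brightest probe set, 2471 of 10411 genes passed (23.7%), 9.02% higher and 14.7% lower, and the counts of gene groups below are read against these shares. The median change was -0.018 over these genes.

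The arrays within each time were alike, with correlations across probe sets from 0.985 to 0.988 at 6 h and from 0.982 to 0.992 at 2 h, whereas pairs across times ran from 0.973 to 0.983. The spread of values on an array was narrower at 6 h (SD of log2 values 2.237 to 2.293) than at 2 h (2.321 to 2.371), without overlap (exact permutation test, two-sided, p = 0.00794, the smallest that 5 against 5 allows, 0.0238 after adjustment over 6 array measures). Along with this, 241 of the probe sets with a mean under 2 rose and 8 fell, while among those between 8 and 10 it was 130 and 302. Quantile normalization over these 10 arrays gave 3064 calls, 49.2% of them higher, against 42.4% in the deposited values. Subtracting array medians gave 3662, with 55.6% higher. The balance of rises and falls therefore depends on the scaling, and its part in the small falls of abundant transcripts was not tested beyond the counts given with the groups. In a single fit over all 8 groups, bile duct included, 510 probe sets passed (243 higher, 267 lower). Pairs of 6 h vehicle bile duct arrays correlated at 0.834 to 0.893. The signal of probes at the 5' end of Gapdh was 5.79 to 6.55 at 6 h, and at 2 h it was 7.93 and 7.28 in replicates 2 and 4 and 5.49 to 6.64 in the others. Without these 2 arrays 3440 probe sets passed. In ANIT hepatocytes this signal was 5.54 to 6.48 at 6 h and 6.65 to 8.15 at 2 h, so it moved with time there, and its part in the time changes was not tested.

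The largest of all changes, in either direction, was in a clock gene. Dbp, which encodes the PAR bZIP transcription factor DBP, averaged 8.12 ± 0.33 at 6 h and 3.61 ± 0.38 at 2 h. The 6 h arrays read 8.17, 7.57, 8.37, 8.10 and 8.38, and the 2 h arrays 3.53, 3.18, 3.34, 4.02 and 3.99. Every 6 h array was thus more than 3 log2 units above every 2 h array. The change was 4.51 ± 0.19, 22.7-fold, with an adjusted p of 1.11e-08, the lowest of all probe sets.

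Per2, a repressor within the loop, read 6.34, 6.38, 7.37, 7.03 and 6.82 at 6 h, against 5.29, 4.68, 4.09, 4.95 and 4.52 at 2 h. The groups did not overlap, and Per2 rose 4.23-fold (change 2.08 ± 0.23, adjusted p = 1e-04). Bmal1, the activator of the loop, moved the other way. Its arrays read 3.14, 2.96, 2.49, 2.64 and 3.37 at 6 h, against 4.09, 4.83, 4.40, 4.30 and 3.85 at 2 h, again without overlap, and it fell 2.59-fold (change -1.37 ± 0.19, adjusted p = 0.000404).

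The promoters of Per2 and Bmal1 are printed because these members of the loop moved in opposite directions and each holds a motif of a clock factor near its start. The windows come from RefSeq on build GRCr8 and run from 250 bases before to 50 bases after the annotated start, 5′ to 3′ on the strand of the gene. Capitals mark the D-box TTANGTAA, the motif of DBP, HLF, TEF and NFIL3, in Per2, and the RORE, AGGTCA preceded by AANT, the motif of NR1D1, NR1D2 and the ROR receptors, in Bmal1.
Per2, chr9:99496944-99497243, minus strand: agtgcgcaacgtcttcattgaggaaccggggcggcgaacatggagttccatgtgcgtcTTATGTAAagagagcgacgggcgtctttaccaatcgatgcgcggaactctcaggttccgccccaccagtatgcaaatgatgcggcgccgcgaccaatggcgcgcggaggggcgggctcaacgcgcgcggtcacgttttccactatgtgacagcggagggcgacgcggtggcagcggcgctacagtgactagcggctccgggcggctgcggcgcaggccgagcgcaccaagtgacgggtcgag
Bmal1, chr1:176766078-176766377, plus strand: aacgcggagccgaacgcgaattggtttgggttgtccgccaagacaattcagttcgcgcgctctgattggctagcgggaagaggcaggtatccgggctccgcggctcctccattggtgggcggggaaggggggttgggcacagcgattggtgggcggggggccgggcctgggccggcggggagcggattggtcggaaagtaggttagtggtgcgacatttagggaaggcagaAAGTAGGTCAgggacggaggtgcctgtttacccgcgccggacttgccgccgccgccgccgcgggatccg
The first base of the D-box lies 192 bases before the Per2 start and that of the RORE 19 bases before the Bmal1 start. Searched on both strands, the D-box stood in 2.24% of all 33469 promoter windows and the RORE in 0.245%, and neither printed window holds another of the motifs searched. The E-box CACGTG, the motif of BMAL1 and CLOCK, stood in 6.42% of all windows and in windows of Nr1d1, Tef, Bhlhe40 and Bhlhe41, 4 of the 14 clock members found in the table. Among windows of genes that only rose 8.71% held the E-box, among those that only fell 9.76%, and among all genes measured 8.68%. For the D-box these shares were 1.63%, 1.38% and 1.35%, and for the RORE 0%, 0.396% and 0.158%. A match is a run of letters and not a shown binding site.

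Of 16 measured members of the core clock, 5 rose (31.2%, against 9.02% of all genes) and 3 fell (18.8%, against 14.7%). In the fit over all 8 groups 5 rose and 1 fell. The repressor gene Nr1d2 rose 2.74-fold. Its arrays read 7.72, 7.54, 7.50, 7.53 and 7.67 at 6 h, against 5.92, 5.76, 5.92, 6.41 and 6.69 at 2 h (change 1.45 ± 0.16, adjusted p = 0.000106), so the 6 h arrays lay close together above a wider 2 h group. Hlf, a relative of Dbp, rose by 1.04 ± 0.25 (adjusted p = 0.00979), at 5.02, 4.76, 5.23, 5.15 and 6.30 at 6 h, against 4.45, 3.95, 4.55, 4.57 and 3.72 at 2 h. A dimmer probe set of Hlf changed by -0.07 (adjusted p = 0.705) at levels near 2. Per1 rose 2.02-fold (change 1.01 ± 0.28, adjusted p = 0.0184), and its 2 h replicate 5, at 3.95, lay below the other 2 h arrays at 5.18 to 5.41.

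Nfil3, which encodes a repressor that binds the same D-box as DBP, fell. Its 6 h arrays read 6.68, 6.57, 5.99, 6.53 and 6.05 and its 2 h arrays 7.74, 7.76, 7.62, 7.19 and 7.64, without overlap (change -1.23 ± 0.16, 2.34-fold, adjusted p = 0.00026). Csnk1d, a kinase gene whose product phosphorylates PER proteins, fell by 0.54 (adjusted p = 0.0125), and 6 h replicate 5, at 7.97, lay within the 2 h range of 7.83 to 8.28. The brightest probe set of Clock changed by -0.50 ± 0.18 (adjusted p = 0.0603), whereas a second probe set fell by 0.97 (adjusted p = 0.000185). Nr1d1 changed by 0.86 ± 0.33 (adjusted p = 0.0765), and its 2 h arrays spread from 4.83 to 7.12. The other 6 members, Bhlhe41, Csnk1e, Tef, Cry2, Bhlhe40 and Per3, changed by -0.26 to 0.36 with adjusted p from 0.0549 to 0.719. Bhlhe41, Csnk1e, Tef and Per3 had means under 3.

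**Figure D1:**
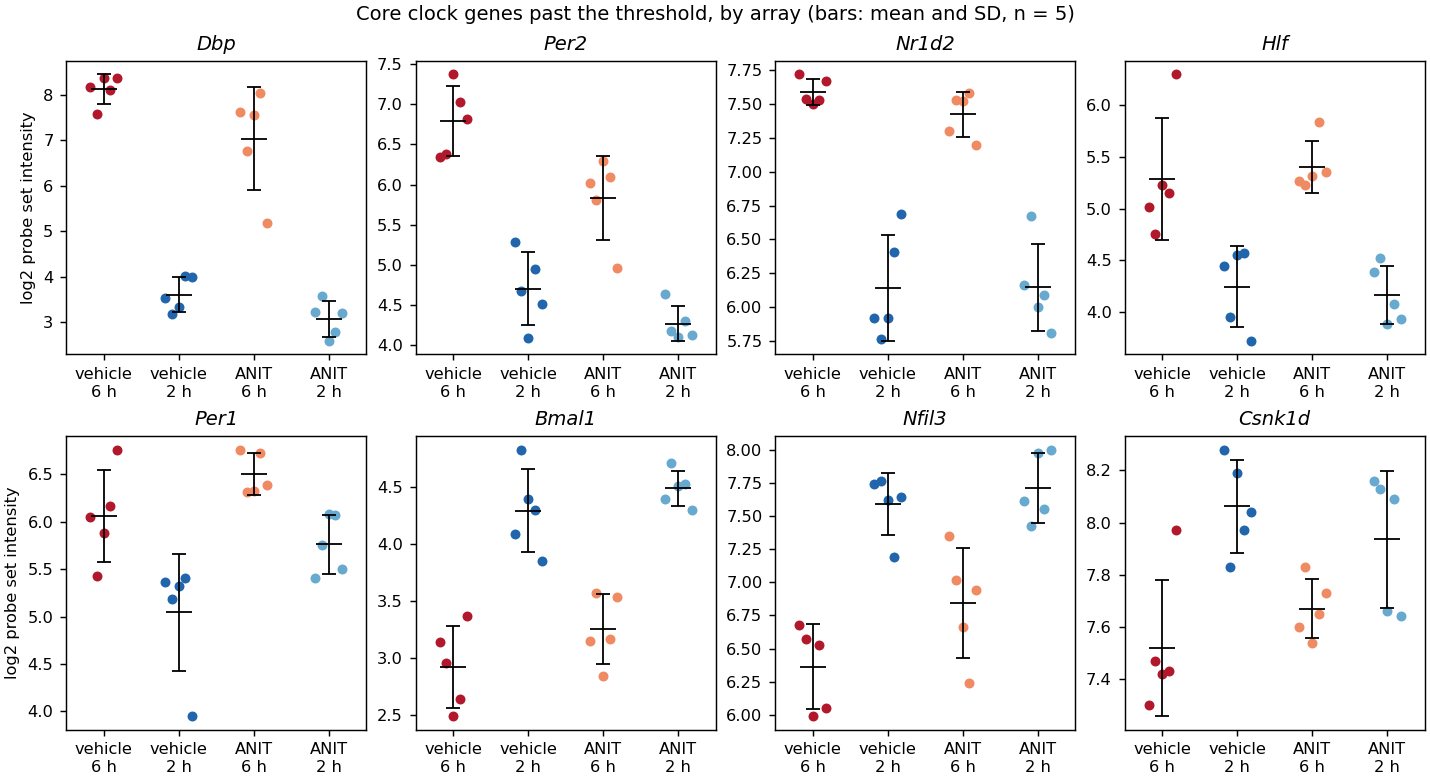
Log2 probe set intensity of the 8 core clock genes past the threshold, with 1 point per array (5 per group) and bars for the mean and SD in hepatocytes of vehicle and ANIT rats at 6 h and 2 h. Dbp sits at 7.57 to 8.38 in vehicle rats at 6 h and 3.18 to 4.02 at 2 h, and Bmal1 and Nfil3 are lower at 6 h with no shared range in vehicle rats.

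Genes known to follow the liver clock moved in both directions. Of 14 measured, 4 rose and 3 fell. Usp2, a deubiquitinase gene, rose 2.99-fold, at 5.20, 5.45, 5.69, 5.74 and 6.95 at 6 h, against 4.57, 4.25, 4.49, 4.22 and 3.60 at 2 h (adjusted p = 0.00143). Avpr1a, the hepatocyte vasopressin receptor gene, fell 3.17-fold, and its arrays were tight at both times (6.01, 5.80, 5.72, 5.52 and 5.46 at 6 h, against 7.32, 7.36, 7.46, 7.22 and 7.48 at 2 h, adjusted p = 6.44e-06). Ppard, the gene of the nuclear receptor PPAR-delta, fell 3.10-fold, with 3.52 to 4.56 at 6 h and 5.15 to 6.11 at 2 h. Insig2, whose product holds back SREBP activation when sterols are high, fell by 0.79 ± 0.16. Tspan4, a tetraspanin gene, rose by 0.64 ± 0.15. The count of rises in this group was 2 without the 2 h replicates 2 and 4, and also 2 without 2 h replicate 2, 2 h replicate 5 or 6 h replicate 3 alone. In the fit over all 8 groups 1 rose and 2 fell.

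The 15 largest rises and 15 largest falls among named genes whose arrays did not overlap ran from 2.62-fold upwards, with adjusted p of 0.00417 or less. Beside Dbp, Per2 and Nr1d2, the rises included Cyp7a1, Hsd17b2, Cadm1, Nceh1, Sppl2a, Lgr5, Ccnd1, Usp2, Klf16, Zdhhc23, Glul and Slc7a1. Hsd17b2, which encodes an enzyme that inactivates estradiol and testosterone, read 10.88, 10.77, 10.87, 10.53 and 11.02 at 6 h, against 7.94, 8.41, 8.5, 9.25 and 8.82 at 2 h. It rose 4.69-fold (change 2.23 ± 0.20, adjusted p = 3.42e-05), with a tight 6 h group. Nceh1, a cholesteryl ester hydrolase gene, rose 3.76-fold (6.54, 7.10, 7.05, 7.23 and 7.21 at 6 h, against 5.36, 5.10, 4.98, 5.07 and 5.07 at 2 h). Cadm1, a cell adhesion molecule gene, rose 4.33-fold, while its second probe set rose by 0.48 (adjusted p = 0.0212). Slc7a1, a cationic amino acid transporter gene, rose 2.62-fold.

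Cdkn1a, which encodes the cell cycle inhibitor p21, had the largest fall. It read 3.04, 3.65, 2.85, 3.20 and 4.64 at 6 h, against 7.24, 6.35, 7.48, 6.55 and 6.78 at 2 h. Every 6 h array lay below every 2 h array, and the fall was 10.6-fold (change -3.40 ± 0.30, adjusted p = 3.42e-05). A second, dim probe set of Cdkn1a changed by -0.42 (adjusted p = 0.104) at means of 2.51 at 6 h and 2.93 at 2 h. The other falls were Lgalsl, Vsig10, Slc6a6, Nipal1, Rprm, Avpr1a, Atp1b1, Ppard, Tubb2a, Cenpt, Slc45a3, Mug1, Sult2a6 and Tmem140. Slc6a6, the taurine transporter gene, fell 3.82-fold (4.83, 5.34, 4.5, 4.57 and 4.00 at 6 h, against 6.63, 6.50, 6.50, 6.74 and 6.54 at 2 h), and a second probe set also fell, by 1.04 (adjusted p = 0.00579). Atp1b1, the beta subunit gene of the sodium pump, fell by 1.66 ± 0.22, whereas its second probe set changed by 0.36 (adjusted p = 0.146). All 30 genes passed in each of 19 other settings in which they were tested, which include the fit over all 8 groups, quantile normalization and each array left out.

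**Figure D2:**
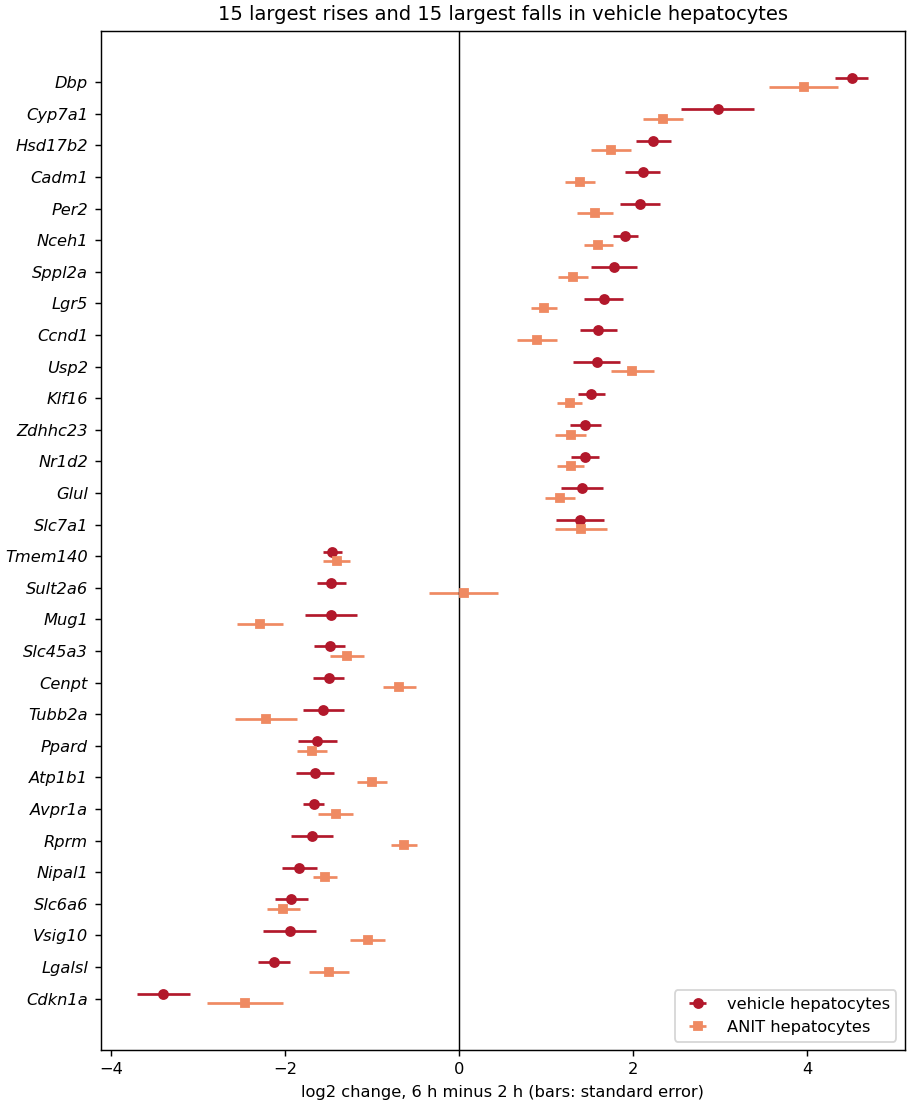
Log2 change between 6 h and 2 h (points, bars are standard errors) of the 15 largest rises and 15 largest falls in vehicle hepatocytes, with the same genes in ANIT hepatocytes beside them. All 15 rises and 14 of the 15 falls lie on the same side of 0 in ANIT hepatocytes, and Sult2a6, at 0.05, does not.

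Bile acid synthesis showed a large rise in its rate-limiting enzyme and small changes in both directions elsewhere. Cyp7a1, cholesterol 7-alpha-hydroxylase, read 8.80, 7.84, 6.26, 7.77 and 8.74 at 6 h, against 4.70, 4.48, 5.58, 5.65 and 4.15 at 2 h. The groups did not overlap, but 6 h replicate 3 lay close to the 2 h arrays. The rise was 7.84-fold (change 2.97 ± 0.42, adjusted p = 0.000409). Of 18 measured genes of the group, 3 rose and 4 fell. Hsd3b7, an early step of the pathway, rose by 0.85 ± 0.20, with 6 h replicate 5, at 5.42, inside the 2 h range of 4.43 to 5.52. Cyp27a1, which starts the alternative pathway, fell by 0.66 (9.26 to 10.19 at 6 h, against 10.24 to 10.61 at 2 h, adjusted p = 0.00934). Hsd17b4 and Slc27a5, of side chain shortening and bile acid ligation, fell by 0.70 and 0.59.

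Genes with a known zone in the liver lobule were counted apart, and the difference between the zones was not tested. Of 15 measured genes of the zone around the central vein, 3 rose and 2 fell. Glul, glutamine synthetase, read 9.79, 9.65, 9.52, 9.95 and 9.67 at 6 h, against 8.77, 8.61, 8.28, 8.63 and 7.22 at 2 h, and rose 2.66-fold (adjusted p = 0.00115). Its second bright probe set rose by 0.59 (adjusted p = 0.0339). Lgr5, a receptor gene of Wnt signalling in that zone, was dim and rose 3.16-fold (3.91, 3.19, 4.07, 3.60 and 4.53 at 6 h, against 2.42, 2.45, 1.98, 2.39 and 1.75 at 2 h). Cyp7a1 is also a member of this list. Cyp27a1 and Cyp1a2, a xenobiotic-metabolising cytochrome, fell. Axin2, Cyp2e1 and Oat of the same zone, named after their values were seen, changed by -0.13 to -0.11 and did not pass. Of 15 periportal genes none rose and 5 fell (33.3%), namely Asl, Fbp1, Hal, Gls2 and Ass1, by 0.42 to 0.59. This count ran from 2 to 8 when 1 array was left out. It was 2 without 2 h replicate 3 or 4, 3 without 2 h replicate 1, 6 h replicate 2 or 6 h replicate 3, and 8 without 2 h replicate 2. Where in the lobule the captured cells lay is not given in the labels.

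**Figure D3:**
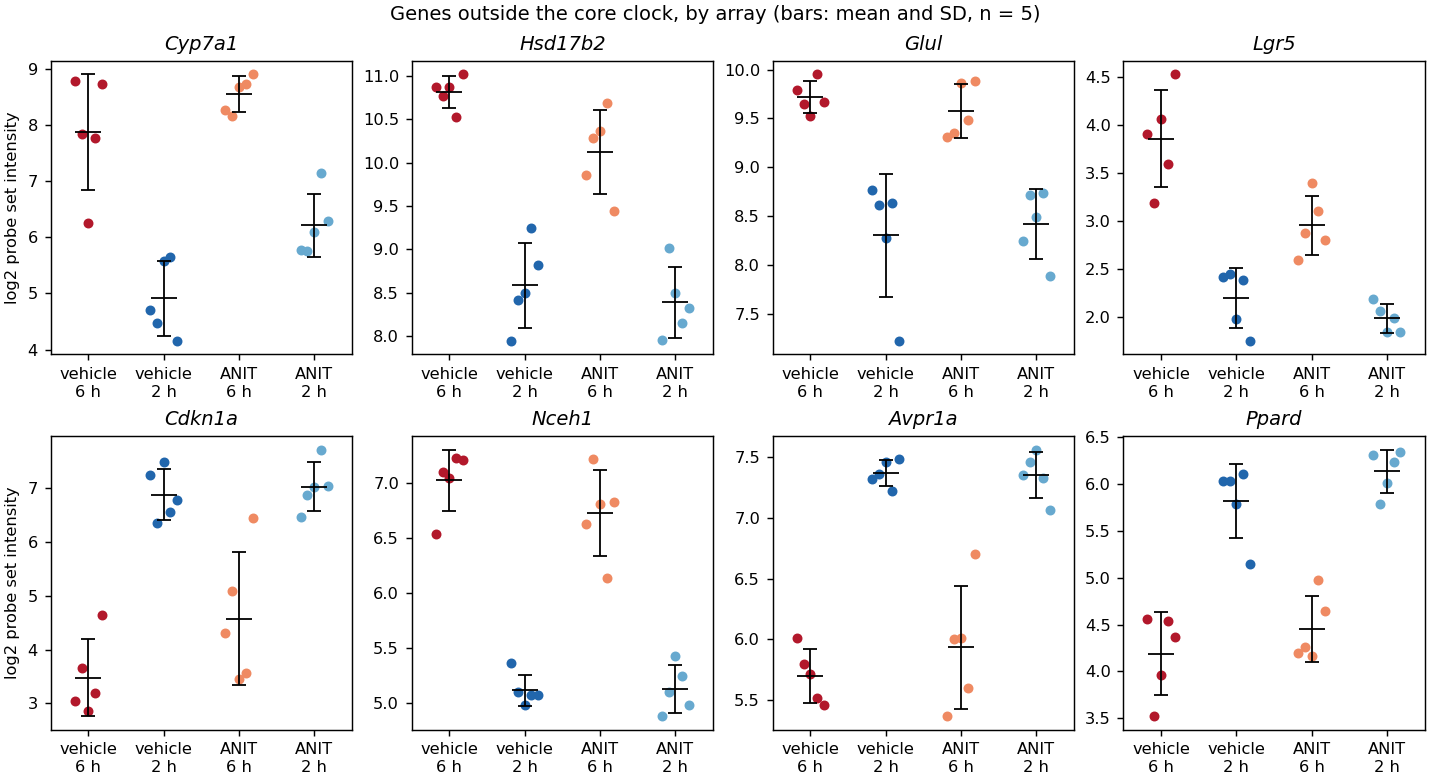
Log2 probe set intensity of 8 genes outside the core clock, with 1 point per array (5 per group) and bars for the mean and SD, in hepatocytes of vehicle and ANIT rats at 6 h and 2 h. Cyp7a1, Hsd17b2, Glul, Lgr5 and Nceh1 are higher at 6 h and Cdkn1a, Avpr1a and Ppard lower, with no overlap between the vehicle groups.

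Transcripts of mitochondrial respiration included many small falls and few rises. Of 77 measured subunits of the respiratory chain and ATP synthase, 32 fell (41.6%, against 14.7% of all genes) and 2 rose (2.60%, against 9.02%), and the median change was -0.28, against -0.018 over all genes. Ndufb6, a complex I subunit, read 7.71, 7.59, 7.49, 7.71 and 7.58 at 6 h, against 8.37, 8.27, 8.52, 8.60 and 8.55 at 2 h. The groups were tight and apart, at 1.80-fold (change -0.85 ± 0.11, adjusted p = 0.000202). Atp5f1c, Atp5f1a and Atp5po of ATP synthase and Uqcrc2 of complex III fell 1.49-fold to 1.72-fold, each without overlap. The exceptions Ndufa13 and Ndufa4, named after their values were seen, rose by 0.71 and 0.44 with overlapping arrays. With quantile normalization 26 fell and the median was -0.21, without the 2 h replicates 2 and 4 it was 28, and leaving out 1 array at a time gave 29 to 32. In the fit over all 8 groups 4 fell.

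Proteasome subunits moved in the same direction, with 17 of 33 lower (51.5%) and none higher, and a median of -0.36. Psmd6, of the regulatory particle, read 7.11, 7.09, 6.75, 6.89 and 7.08 at 6 h, against 7.79, 7.85, 8.16, 8.00 and 7.87 at 2 h (1.93-fold, adjusted p = 0.000184). Psmd1, Psmd10, Psmc4 and Psma1 fell by 0.55 to 0.67. This group was more sensitive than the respiratory chain. With quantile normalization 10 fell, without the 2 h replicates 2 and 4 it was 9 (and 3 rose), without 2 h replicate 2, 2 h replicate 4 or 6 h replicate 3 alone it was 11, and over all 8 groups 1. Translation factors and tRNA synthetases included 8 falls of 32 (25.0%) and no rise. Eif3c, an initiation factor subunit gene, fell 1.64-fold, at 7.35 to 7.71 at 6 h and 8.15 to 8.36 at 2 h, while the elongation factor gene Eef1a1, named after its values were seen, changed by 0.00 ± 0.10.

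Enzymes of amino acid breakdown and of one-carbon metabolism had more falls than rises. Of 28 measured genes of amino acid catabolism and the urea cycle, 12 fell (42.9%) and 2 rose, with a median of -0.38. Otc, the urea cycle enzyme ornithine transcarbamylase, read 8.96, 8.44, 8.42, 8.21 and 8.54 at 6 h, against 9.42, 9.45, 9.53, 9.47 and 9.39 at 2 h. The 2 h arrays differed by less than 0.2 and all lay higher (change -0.94 ± 0.13, adjusted p = 0.000379). Hpd and Kynu, of tyrosine and tryptophan breakdown, fell by 0.54 and 0.75, and Prodh, proline dehydrogenase, by 0.93. The count of falls was 7 without 2 h replicate 1, 8 with quantile normalization and 1 in the fit over all 8 groups.

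In the methionine cycle, Bhmt, which remethylates homocysteine with betaine, fell 2.11-fold (10.30, 9.44, 9.70, 9.74 and 9.70 at 6 h, against 10.94, 10.79, 10.81, 11.27 and 10.47 at 2 h). Cbs and Cth, the 2 steps from homocysteine to cysteine, fell by 0.90 and 0.80, and Mthfd1, a folate enzyme, by 0.81. Mat2a, the methionine adenosyltransferase subunit that is low in resting hepatocytes, rose 1.71-fold, with 8.62 to 8.91 at 6 h and 7.86 to 8.12 at 2 h. In all 6 of 15 genes of this list fell (40%) and Mat2a alone rose. The falls were 4 without the 2 h replicates 2 and 4, and 1 in the fit over all 8 groups. Mat1a, its hepatocyte counterpart, changed by -0.15 ± 0.13 and did not pass. Mat1a, and Alas1 and Pck1 below, were named after their values were seen. Of 8 heme genes 4 fell, Ppox, Fech, Urod and Blvra, by 0.42 to 0.69, and Alas1, the rate-limiting enzyme of heme synthesis, changed by 0.22 (adjusted p = 0.549).

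Genes that mark feeding or fasting gave no uniform shift. Of 13 insulin and feeding genes 1 rose and 1 fell, near or under the shares of all genes. Gckr, the glucokinase regulator, fell by 0.85 ± 0.13 (adjusted p = 0.000815). Thrsp, a lipogenic gene, rose by 0.55 ± 0.17 (adjusted p = 0.0352), and its other probe sets rose by 1.41 and 1.23. Of 22 fasting and gluconeogenesis genes 1 rose and 4 fell, while the falls were 2 without 2 h replicate 4 and 8 without 6 h replicate 5. Pdk4, a kinase gene induced by fasting whose product slows glucose oxidation, read 3.5, 3.69, 3.90, 3.48 and 3.13 at 6 h, against 4.07, 4.49, 4.38, 4.61 and 4.32 at 2 h, and fell 1.78-fold (adjusted p = 0.00159). Sesn1, Fbp1 and Foxo1 fell by 1.05, 0.47 and 0.46, and Klf15 rose by 0.61. Pck1, the gluconeogenic enzyme, changed by -0.06 and did not pass.

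Glycogen and glycolysis genes included 4 falls and 2 rises among 17. Pygl, liver glycogen phosphorylase, fell 1.84-fold (7.57 to 8.02 at 6 h, against 8.44 to 8.90 at 2 h), and Pfkfb1, which sets the glycolytic signal fructose 2,6-bisphosphate, fell 2.22-fold (8.34 to 9.51, against 9.90 to 10.47). Gpd1, which links glycolysis to glycerol synthesis, rose 1.69-fold. Of 19 lipoprotein and triglyceride genes 2 rose and 4 fell, with 1 to 2 falls when any single array except 2 h replicate 5 or 6 h replicate 2 was left out. Lipc, hepatic lipase, fell 2.08-fold with narrow groups, at 10.01, 9.93, 9.79, 9.98 and 9.90 at 6 h, against 10.84, 10.81, 11.12, 10.99 and 11.12 at 2 h (adjusted p = 7.12e-05). Scarb1, the HDL receptor gene, rose by 0.83 ± 0.15, and Plin2, of the lipid droplet coat, by 0.52 ± 0.15. Of 28 PPARA targets and oxidation genes 4 rose and 5 fell with a median of 0.00. The rises were 2 without 2 h replicate 1, 3 or 5 or 6 h replicate 2, and the falls 3 without 6 h replicate 4. Ucp2, an uncoupling protein gene, fell 1.91-fold. Of 16 fatty acid synthesis genes 3 rose, Elovl5, Fads2 and Acly, and Slc25a1 fell. Cholesterol synthesis had 1 rise (Mvk) and 1 fall (Dhcr7) among 18.

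Among signalling targets, 4 of 23 immediate early genes rose and none fell. Csrnp1, an immediate early transcription factor gene, rose 1.96-fold (5.69 to 6.33 at 6 h, against 4.68 to 5.29 at 2 h), and Dusp1, Klf6 and Jun rose by 0.99, 0.76 and 0.61. A second probe set of Klf6 changed by -0.25 (adjusted p = 0.234) and a dim one of Dusp1 by -0.14 (adjusted p = 0.476). Those of Jun changed by 0.56 (adjusted p = 0.0318) and 0.77 (adjusted p = 0.0717). Of 18 glucocorticoid targets 4 rose and 2 fell, Dusp1, Per1 and Sgk1 among the rises, and Hsd11b1 and Sult1a1 were the falls. Fkbp5, Tat and Tsc22d3 of this list, named after their values were seen, changed by -0.70, -0.05 and -0.01 and did not pass. The rises of that list were 2 without any of the 2 h replicates 3, 4 and 5 or the 6 h replicates 2 and 5 left out singly. Growth hormone signalling genes were lower in 3 of 18 (16.7%, against 14.7% of all genes) and higher in 1 (5.56%, against 9.02%). Igf1, Socs2, Socs3, Cish, Igfals and Cyp2c11 of this list, named after their values were seen, changed by -0.68 to 0.24 and did not pass. Egfr, the EGF receptor gene, fell 2.45-fold (6.94, 7.26, 5.83, 6.20 and 6.02 at 6 h, against 7.39, 8.05, 8.00, 7.93 and 7.35 at 2 h), and Stat5b, the mediator of growth hormone signals, fell 2.13-fold. Igfbp2 rose 2.26-fold with wide groups (3.15 to 4.98 at 6 h, against 2.51 to 4.04 at 2 h). Of 16 interferon-induced genes 4 rose, Stat2, Usp18, Mx2 and Irf9, by 0.49 to 1.03, and 2 fell, Psmb8 by 0.62 and Gbp2, named after its values were seen, by 0.45. A second probe set of Stat2 changed by -0.09 (adjusted p = 0.659) and one of Mx2 by -0.13 (adjusted p = 0.762). Rbm3, the cold-inducible RNA-binding protein gene, rose 2.39-fold (8.28, 8.37, 8.47, 8.63 and 8.76 at 6 h, against 7.04, 6.97, 7.24, 7.66 and 7.33 at 2 h, adjusted p = 0.000122). Of 17 heat shock genes 3 fell (17.6%, against 14.7% of all genes), the chaperone genes Hspa4, Ahsa1 and Hspd1, by 0.62, 0.40 and 0.30. Rbm3 was the only rise in that list, and Cirbp, named after its values were seen, changed by 0.05 (adjusted p = 0.852). Of 25 plasma protein genes 3 fell, a share under the 14.7% of all genes, namely Crp, Fgg and C3, by 0.61, 0.34 and 0.32. This count was 1 with quantile normalization, 1 without 2 h replicate 1, 2 h replicate 4, 6 h replicate 4 or 6 h replicate 5, and 0 in the fit over all 8 groups. C3 was 0.36 higher at 6 h in the authors' deposited table of group intensities.

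Cell cycle genes fell in 8 of 26 (30.8%) and rose in 4. Beside Cdkn1a, Ccng1, another p53 target, fell by 0.87 ± 0.14. Among other p53 targets in this list, Gadd45a rose by 0.86 (adjusted p = 0.019) and Mdm2 changed by 0.08 (adjusted p = 0.759). Sesn1 and Rprm, p53 targets outside this list, fell (Sesn1 by 1.05, adjusted p = 0.00579). Gadd45g rose by 1.76 and Cdkn1b by 0.46, and the arrays of Gadd45a, Gadd45g and Cdkn1b overlapped between the times. Gadd45a, Mdm2, Gadd45g and Cdkn1b were named after their values were seen. The mitotic genes Ccnb2 and Aurka fell by 1.13 ± 0.26 and 0.94 ± 0.18. Ccnb2 read 5.07, 5.67, 4.74, 5.34 and 5.24 at 6 h, against 6.69, 7.17, 6.18, 6.20 and 5.46 at 2 h, and Aurka was dim, at 2.04 to 3.03 at 6 h and 3.20 to 3.86 at 2 h. Ccnd1, cyclin D1 of the G1 phase, rose on its brightest probe set by 0.96 ± 0.18 and on another by 1.60 ± 0.21, and did not pass on its dimmest one (0.12).

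Of 28 xenobiotic enzymes 7 fell and 2 rose. Sult1b1 and Sult1a1, sulfotransferases, Cyp2j4 and Cyp3a18, cytochromes, and Ephx1, an epoxide hydrolase, fell by 0.5 to 0.71. The number of falls was 4 without 2 h replicate 1, 2 h replicate 4 or 6 h replicate 3. Cyp1a1, the cytochrome induced through the aryl hydrocarbon receptor, is named here after its values were seen. It read 5.83, 5.63, 2.16, 2.57 and 6.94 at 6 h, against 2.21, 2.26, 2.12, 2.30 and 2.33 at 2 h. The 6 h vehicle rats were split, with 3 high, replicate 3 inside the 2 h range and replicate 4 slightly above it, so the change of 2.38 ± 0.72 (adjusted p = 0.0292) is not shared by all, and the source of the split was not tested. ANIT hepatocytes stood at 8.01 to 9.35 at 6 h and 2.93 to 6.39 at 2 h.

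Markers of other cells were checked beside these results. The mean level of 16 hepatocyte markers was 10.65 to 11.02 at 6 h and 10.54 to 10.88 at 2 h, and 1 rose (Cyp7a1) and 1 fell (Apoa1). The 14 cholangiocyte markers averaged 4.5 to 4.67 at 6 h and 4.37 to 4.68 at 2 h, and in bile duct captures 7.26 to 8.11 at 6 h and 8.28 to 8.55 at 2 h. Of the 14, 8 had a mean under 4 in hepatocytes at both times. Of 10 macrophage markers 5 fell and 1 rose, and the mean level was 6.02 to 6.29 at 6 h and 6.27 to 6.57 at 2 h. Cd68 read 6.79, 6.95, 6.33, 6.86 and 6.24 at 6 h, against 7.51, 7.38, 7.59, 7.57 and 7.70 at 2 h, and Clec4f, of Kupffer cells, fell by 0.72 ± 0.14. The rise was C1qc, named after its values were seen, by 0.61 (adjusted p = 0.0229), whereas C1qb fell by 0.64. Of 8 endothelial markers 3 fell (Lyve1 by 1.01, Ptprb by 0.97 and Fcgr2b by 0.44) and 2 rose (Eng by 0.97 and Pecam1 by 0.42), at mean levels of 5.84 to 6.18 at 6 h and 6.04 to 6.50 at 2 h. Of 16 stellate and fibroblast markers 2 fell (12.5%, against 14.7% of all genes), Lrat by 0.77 and Col1a2 by 0.98. A second probe set of Col1a2 changed by -0.22 (adjusted p = 0.456). In such captures fewer cells of a type and less RNA per cell cannot be told apart, and the part of these cells in the falls above was not tested.

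The same time change in ANIT rats gives a comparison that shares no array with the vehicle rats. There 3228 probe sets passed (20.3%), 1585 higher (9.99%) and 1643 lower (10.4%). Of the 3529 called in vehicle hepatocytes, 3389 (96.0%) had the same sign in ANIT hepatocytes, against 77.5% of all probe sets. Called in both with the same sign were 1816, 51.5% of the vehicle calls and 56.3% of the ANIT calls, and 2 were called in opposite directions. Across probe sets the changes correlated at 0.77 (Pearson) and 0.74 (Spearman), as a description, since probe sets are not independent and both comparisons share collection times. The 2 ANIT groups also differed in array spread (2.221 to 2.298 at 6 h, against 2.320 to 2.357 at 2 h).

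Of the largest changes, all 15 rises and 14 of the 15 falls passed in the same direction in ANIT hepatocytes. Dbp changed there by 3.96, Cyp7a1 by 2.34, Per2 by 1.56, Bmal1 by -1.24 and Cdkn1a by -2.46. Sult2a6, a bile acid and steroid sulfotransferase gene, was the exception. It fell by 1.47 ± 0.17 in vehicle rats (6.55, 6.48, 7.13, 6.43 and 6.67 at 6 h, against 8.03, 8.25, 7.68, 8.08 and 8.55 at 2 h) and changed by 0.05 in ANIT rats, whose arrays spread from 6.45 to 8.36 at 6 h and from 6.46 to 8.61 at 2 h. The difference between these changes, -1.52 ± 0.48, did not pass (adjusted p = 0.673). No probe set passed the test of a difference between the vehicle and the ANIT time change (limma interaction, lowest adjusted p = 0.507), while 1072 had an unadjusted p under 0.05, and no other tool was run. Among those of lowest p, Srxn1, an antioxidant enzyme gene, changed by 0.27 (adjusted p = 0.124) in vehicle and rose by 1.11 in ANIT hepatocytes, at a difference of -0.84 (adjusted p = 0.507). With 1 probe set per gene 21.1% of genes passed in ANIT hepatocytes, 9.44% higher and 11.6% lower. The respiratory chain list had 40 falls and no rise in ANIT hepatocytes, the proteasome 11 and 1, amino acid catabolism 10 and 0, and one-carbon metabolism 8 and 1. None of the 10 macrophage markers passed there. Of the cell cycle falls named above, Cdkn1a passed in ANIT hepatocytes, whereas Ccng1, Ccnb2 and Aurka changed by -0.18, -0.7 and -0.19 and did not pass.

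**Figure D4:**
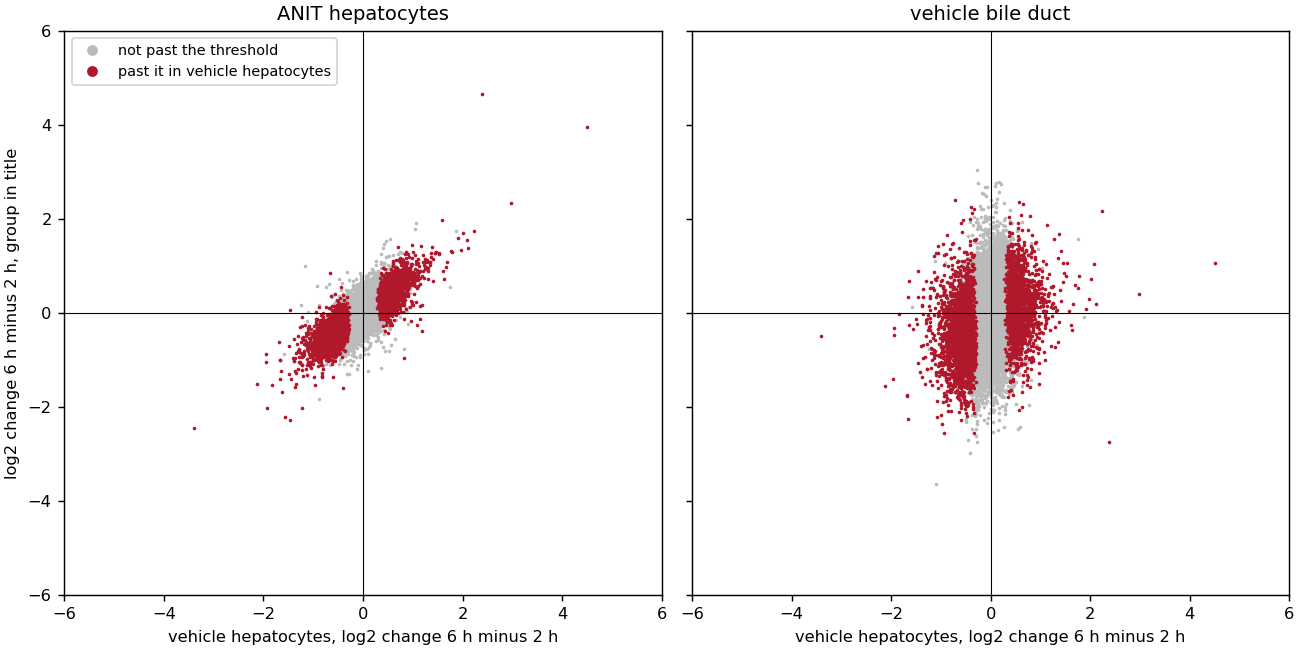
Log2 change from 6 h minus 2 h of each of 15866 probe sets in vehicle hepatocytes (horizontal axis) against the same change in ANIT hepatocytes (left) and vehicle bile duct (right), with probe sets past the threshold in vehicle hepatocytes in red. The points follow a line in ANIT hepatocytes (Pearson 0.77) and scatter widely in bile duct (Pearson 0.27).

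Captured bile duct of vehicle rats changed differently over the same interval. There 2228 probe sets passed (14%), 854 higher (5.38%) and 1374 lower (8.66%), a count that was 560 with quantile normalization and 902 without 2 h replicate 4. Of the vehicle hepatocyte calls 555 were also called in bile duct with the same sign (15.7% of the hepatocyte calls and 24.9% of the bile duct calls) and 82 with the opposite sign, and the changes correlated at 0.27 across probe sets. The time change differed between hepatocytes and bile duct for 2090 probe sets (limma interaction, 13.2%), 1226 with a higher (7.73%) and 864 with a lower value (5.45%) in hepatocytes. With quantile normalization 836 differed. The test uses 1 variance per probe set for both tissues, which limits its p-values because bile duct arrays spread more than hepatocyte arrays. Pairs of bile duct arrays correlated at 0.834 to 0.893 at 6 h and 0.939 to 0.973 at 2 h. Since the 2 tissues may share rats, same-numbered arrays of a time were also fitted as a random block. Their estimated correlation was -0.003, and 2080 probe sets differed, all among the 2090. Bile duct captures held hepatocyte markers at a mean of 4.99 to 9.01 at 6 h and 4.47 to 6.83 at 2 h, and the part of this in the differences was not tested.

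Of the 16 clock members 3 rose in bile duct (against 4.31% of genes) and none fell, and for 3 the change differed between the tissues, 2 higher and 1 lower in hepatocytes (against 9.28% and 4.81% of genes). Dbp changed by 1.05 in bile duct and did not pass (adjusted p = 0.0945), and the difference from hepatocytes was 3.45 (adjusted p = 0.000514). Bmal1 changed by 0.15 there (difference -1.52, adjusted p = 0.00664). Per2 rose in both, by 2.08 and 1.05, and the difference of 1.03 passed narrowly (adjusted p = 0.0487). Nr1d2 rose by 1.07 and Hlf by 1.10 in bile duct, and neither differed from hepatocytes beyond the threshold (differences 0.38 and -0.06). Cyp7a1, Cadm1, Nceh1, Lgr5, Ccnd1, Usp2 and Glul among the rises and Cdkn1a, Slc6a6, Nipal1, Avpr1a, Slc45a3, Mug1 and Sult2a6 among the falls also changed unequally in the 2 tissues. Slco1a4, an organic anion uptake transporter gene, fell by 1.07 in hepatocytes and rose by 1.42 in bile duct on its dimmer probe set (difference -2.49, adjusted p = 0.00085). On its brighter one it changed by -0.32 and 0.97 and passed in neither tissue, while the difference, -1.28, passed (adjusted p = 0.0206). Inhba, the activin subunit gene, fell by 0.82 and rose by 1.37 (difference -2.19). Tes and Pdcd10 fell by 2.29 and 2.16 in bile duct and did not pass in hepatocytes. Rbm39 and Pja2 each had 1 probe set that fell in bile duct, by 2.43 and 2.47, while their other probe sets (3 and 1) changed there by -0.49 to 0.44 without passing and did not differ between the tissues beyond the threshold.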

How the data were processed

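The series holds 39 Affymetrix rat arrays, and 10 form the main comparison. The deposited log2 values were made by the authors with RMA, per the submitters' processing notes, whose version is not given in the sources used here. Labels name NuGEN Ovation amplification and Picopure RNA isolation, and replicates are labelled biological. The authors' deposited Rosetta Resolver tables give group intensity values, which were used, centred on the median ratio (0.05 as log2), only to check directions. Tests used 15866 of 15923 probe sets, since 57 are the AFFX array controls. A supplied annotation table gave 1 gene symbol for 12783, several for 312 and none for 2771, and 12748 had a gene ID in the RefSeq table.

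Each comparison was fitted on its own arrays with limma 3.58.1 in R 4.3.3 (group means, eBayes, two-sided, Benjamini-Hochberg). Differences of time changes were interaction contrasts over the 4 groups concerned. The fits were tested on simulated data. Named were the 15 largest rises and falls without overlap (1 symbol, 1 probe set per gene), every core clock member, up to 5 members of smallest p per list described, and 5 per direction of each interaction. Lists use each gene's probe set of highest mean over 39 arrays, and list counts have no test. Members, lists and tests were chosen with earlier results of these data known. Figures were drawn with matplotlib 3.10.9.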

Additional observations from a re-analysis of the deposited data

Results flagged for a closer look

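In 26 of 390 groups of 5 arrays, over 195 named probe sets, 1 array lay far from the other 4 (gap over range above Dixon's critical value of 0.71). Chance flags about 1 in 20 groups. At 6 h replicate 5 gave 7.97 for Csnk1d, 8.34 for Gckr, 8.08 for Klf15, 5.42 for Hsd3b7, 8.27 for Cldn3 and 8.60 for Hes6. Replicate 3 at 6 h gave 9.11 for Pgk1, 7.40 for Scarb1 and 9.52 for Cth, and replicate 4 gave 6.44 for Cyp2j4 and 10.40 for Crp. Replicate 1 at 6 h gave 6.54 for Nceh1 and 5.78 for Jun, and replicate 2 gave 5.96 for Slc7a1. At 2 h replicate 5 gave 3.92 for Klf16, 3.95 for Per1 and 7.12 for Vim. Replicate 4 at 2 h gave 7.19 for Nfil3, 2.79 for Per3, 6.06 for Rbm39 and 2.51 for Elfn2. Replicate 1 at 2 h gave 5.26 for Zdhhc23 and 6.55 for Jun, replicate 2 gave 6.68 for Col1a2, and replicate 3 gave 7.53 for Dusp1 and 4.09 for Hivep1.

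The time change differed between vehicle hepatocytes and vehicle bile duct for 2090 probe sets (limma interaction, adjusted p under 0.05). Of the named genes, the log2 change in hepatocytes minus that in bile duct was 3.45 for Dbp, 2.56 for Cyp7a1, 1.93 for Cadm1, 1.87 for Ccnd1, 1.83 for Nceh1, 1.54 for Usp2, 1.47 for Lgr5, 1.16 for Glul and 1.03 for Per2. It was -2.91 for Cdkn1a, -2.37 for Sult2a6, -2.01 for Avpr1a, -1.82 for Nipal1, -1.82 for Mug1, -1.61 for Slc6a6, -1.52 for Bmal1 and -1.24 for Slc45a3. Among the lowest p were 2.69 for Rbm39, 2.15 for Tes, 2.09 for Pja2 and 1.86 for Pdcd10, and -2.49 for Slco1a4, -2.19 for Inhba, -2.11 for Rnf4, -2.05 for Mtarc1 and -1.80 for Elfn2. These are values of single probe sets. Of the other probe sets, the brighter one of Slco1a4 also differed (-1.28), and none of those of Rbm39, Pja2, Rnf4, Mtarc1 and Elfn2 passed.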

How the results depend on the processing

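The count of 3529 probe sets in vehicle hepatocytes became 510 in 1 fit over all 8 groups (243 higher, 267 lower), 1600 at an adjusted p under 0.01 and 1581 with a 1.5-fold minimum, and ran from 2568 to 3717 with 1 array left out. Without probe sets of a mean under 4 it was 2893, with 33.8% higher. The fit over all 8 groups ended the call of 100 of 195 named probe sets. Replicate numbers did not pair the rats (correlations of same-numbered deviations from -0.06 to 0.05), and with the replicate block 3060 passed in vehicle hepatocytes, 509 in bile duct, and 2950 in ANIT hepatocytes. ANIT hepatocytes gave 2232 to 3092 with 1 array left out. The bile duct count of 2228 was 560 with quantile normalization and 902 to 2755 with 1 array left out (1215, 921, 902 and 964 without 2 h replicates 2, 3, 4 and 5). The difference between hepatocytes and bile duct gave 836 with quantile normalization and 1364 to 3280 with 1 array left out (1366 and 1364 without hepatocyte 2 h replicates 3 and 5, and 3280 without bile duct 6 h replicate 4), and that between vehicle and ANIT 0 to 1 (1 without ANIT 2 h replicate 2). With 1 array left out, array means differed by -0.019 to -0.015, array SDs by -0.069 to -0.055, 3' minus 5' Gapdh by 0.287 to 0.784, 3' minus 5' actin by -0.358 to -0.113, 5' Gapdh by -0.877 to -0.266 and 5' actin by -0.199 to 0.044. In the authors' deposited intensities 97.5% of the called probe sets and all 30 largest changes kept their direction, while C3 reversed, at 0.36. The alternatives without the 2 h replicates 2 and 4, with the authors' intensities and with same-numbered arrays of 2 tissues as a random block were chosen after seeing the data. The cause of these shifts was not tested.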
